A study of Homo sapiens with 16 samples.

Results

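SAM68 knockout HCT116 cells were compared with wild-type HCT116 cells over all 8 libraries of that line, 4 per genotype, out of 16 libraries in the series. The 8 were chosen by their labels alone. HCT116 is a human colorectal carcinoma line. Wild-type and SAM68 knockout cells had each been transfected with a non-targeting control siRNA pool or with siRNAs against NORAD, a long noncoding RNA that binds Pumilio proteins, at 50 nM for 48 h before harvest. That gives 4 groups of 2 libraries (wild type with control siRNA, wild type with NORAD siRNA, knockout with control siRNA and knockout with NORAD siRNA), and the siRNA entered the model as an additive term so that the genotype effect rested on 4 against 4 libraries. Knockout and wild-type libraries therefore both include cells in which NORAD was targeted. The labels do not say how the knockout was made or whether it is 1 clone, so an effect of losing SAM68 and a difference between 2 sublines of HCT116 cannot be told apart. Nor do they tell whether paired libraries of a group were grown as separate cultures, so p-values measure only sample-to-sample spread, and that may be technical. In bulk RNA, fewer cells that express a gene and less RNA per cell cannot be told apart.

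SAM68 is an RNA-binding protein of the STAR family, encoded by KHDRBS1 (NCBI gene 10657). It binds A- and U-rich sites in RNA, regulates alternative splicing and the choice of polyadenylation sites, and is a substrate of Src-family kinases. By its title, the series concerns the role of SAM68 in how NORAD acts on Pumilio proteins, and the genotype comparison describes how the 2 lines used for that question differ in their mRNA.

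Polyadenylated RNA was sequenced to a total of 15808640 to 27387412 expected counts per library. Epithelial markers were present in every library: the summed level of 10 markers was 3680 to 4420 CPM in wild type and 4060 to 5080 CPM in knockout, mainly from the keratins KRT8, KRT18 and KRT19. VIL1 was at 0 in all 8 libraries and CDH17 at most 0.0929 CPM. Of the markers of other cell types, 6 mesenchymal or bone genes summed to 16.5 to 19.6 CPM in wild type and 11.3 to 15.9 CPM in knockout, and blood, endothelial, liver and neural markers to at most 9.81, 0.643, 0.309 and 8.31 CPM. CD3E, HBB, RBFOX3 and COL1A2 were at 0 in all 8.

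Levels are given as CPM, counts scaled by TMM to a common library size, as mean ± SD over the 4 libraries of a genotype (n = 4). Where 4 values are given for a genotype, they stand in the order control siRNA replicates 1 and 2, then NORAD siRNA replicates 1 and 2. Fold changes are log2 of knockout over wild type with their standard error. A gene was called when edgeR's quasi-likelihood test gave a Benjamini-Hochberg adjusted p below 0.05 over all 13764 tested genes.

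The targeted gene was low in all 4 knockout libraries. KHDRBS1 was at 217, 241, 206 and 224 CPM in wild type and at 31.6, 38.5, 34.4 and 44.5 CPM in knockout. The genotypes did not overlap, and 37.3 ± 5.60 CPM in knockout was 16.8% of the 222 ± 14.7 CPM in wild type. The log2 fold change was -2.57 ± 0.11 (edgeR adjusted p = 1.69e-06), and a two-sided exact permutation test gave p = 0.0286, the smallest that 4 against 4 libraries allow. Reads from KHDRBS1 were therefore reduced and not absent.

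In all, 1851 of 13764 genes (13.4%) were called, 1137 higher in knockout (8.26%) and 714 lower (5.19%). Most of these changes were small: the median absolute log2 fold change of called genes was 0.467, and 54 higher and 97 lower genes reached an absolute log2 fold change of at least 1. The 4 knockout libraries lay wholly above or below the 4 wild-type libraries for 2629 of all genes (19.1%), and for 1492 of those called. No gene was called by edgeR for a difference of the knockout effect between the siRNAs (0 of 13764 genes, or 0%, with 1048 at an unadjusted p below 0.05), while DESeq2 called 2. That comparison rests on 2 libraries per group and does not show that the effects are alike. Contrasts of a 4-group model fitted to all 8 libraries called 43 genes under control siRNA and 2495 under NORAD siRNA. The control siRNA contrast holds both libraries that stand apart by GC content, described next, 1 in each genotype. The gap between 43 and 2495 was not tested. Over all genes the 2 sets of log2 fold changes correlated at 0.353 (Pearson) and 0.593 (Spearman).

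The genotype effect ran with the base composition of the transcripts. Across the 13325 genes with a known transcript GC content, the log2 fold change fell with GC content (Spearman's rho across genes -0.644, -0.332 under control siRNA and -0.734 under NORAD siRNA; genes are not independent replicates). The median GC content was 41.1% for genes called higher, 58.1% for genes called lower and 49.8% for all. In the fifth of genes with the lowest GC content 25.0% were called higher and 1.09% lower, and in the fifth with the highest 0.75% and 11.1%. A library's own deviations correlated with GC content at 0.633, -0.134, 0.671 and 0.457 in wild type and at 0.465, -0.457, -0.601 and -0.699 in knockout, so wild-type control siRNA replicate 2 and knockout control siRNA replicate 1 stood apart from the other libraries of their genotype. The part that this dependence has in the changes below was not tested.

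**Figure D1:**
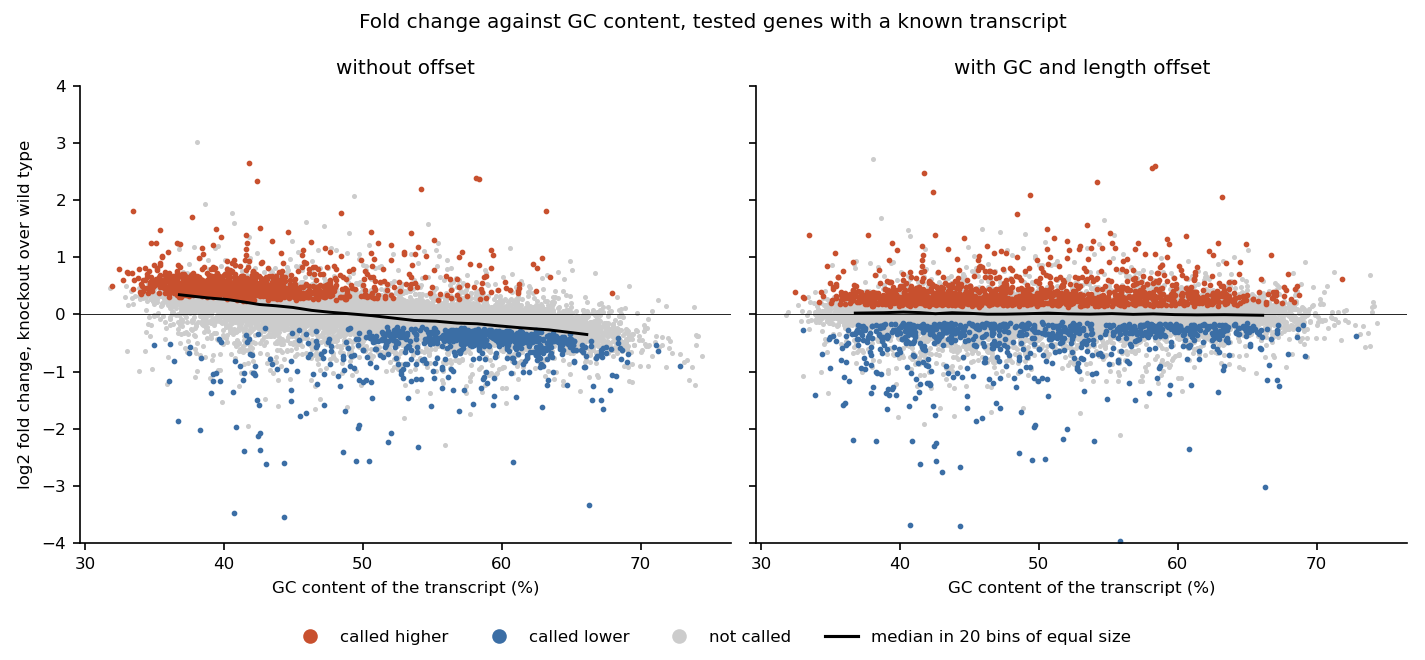
Each point is 1 of 13325 genes, with the GC content of its transcripts (%) on the x axis and the log2 fold change of knockout over wild type on the y axis, without (left) and with (right) a per-library offset for GC content and length; the black line is the median in 20 bins, and 5 and 4 genes lie beyond the axis limits. The median line slopes down on the left, where Spearman's rho was -0.644, and is nearly flat on the right, where it was -0.0555.

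For that reason counts of called list members are also given with an offset per library for GC content and transcript length. With it, 2054 of 13325 genes were called (15.4%), 1278 higher (9.59%) and 776 lower (5.82%), and 1133 genes were called in the same direction both ways (700 higher, 433 lower). The counts of called list members below stand against these shares over all genes, 8.26% higher and 5.19% lower without the offset and 9.59% and 5.82% with it. Calls at large fold changes were kept more often: of 144 called genes with an absolute log2 fold change of at least 1 and a known GC content, 129 were also called with the offset. The number of calls without the offset depended on single libraries. It was 212 to 420 when any one of the other 6 libraries was left out (212 without wild-type NORAD siRNA replicate 2, 284 without wild-type NORAD siRNA replicate 1, 299 without knockout NORAD siRNA replicate 1, 304 without knockout control siRNA replicate 2, 402 without wild-type control siRNA replicate 1 and 420 without knockout NORAD siRNA replicate 2). It was 4196 (2199 higher, 1997 lower) without wild-type control siRNA replicate 2, which stood apart. It was 4452 (2356 higher, 2096 lower) without knockout control siRNA replicate 1, which also stood apart. Without both it was 5916 (3178 higher, 2738 lower). Leaving out any one of the other 6 left 111 to 272 genes called higher and 101 to 148 called lower. Counts of list members called with 1 library left out stand against these totals of the same fits, not against the shares above. A set of 180 genes (96 higher, 84 lower) was called in every one of the 8 fits without 1 library and with the offset.

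The largest increases were in KLK5 and SCUBE1. KLK5, a secreted serine protease of the kallikrein family known from the skin, was at 2.05, 1.52, 1.53 and 0.977 CPM in wild type and 8.72, 8.28, 7.89 and 7.22 CPM in knockout. SCUBE1, a secreted and cell-surface glycoprotein with EGF-like and CUB domains, was at 1.26, 1.33, 2.08 and 1.85 CPM in wild type and 10.1, 8.97, 7.83 and 7.51 CPM in knockout. Every knockout library was above every wild-type library for both genes. The log2 fold change was 2.40 ± 0.18 for KLK5 (edgeR adjusted p = 5.81e-05) and 2.38 ± 0.19 for SCUBE1 (8.34e-05), the 2 largest among called genes that reached 5 CPM on average in either genotype and did not overlap. The other members of the SCUBE family, SCUBE2 and SCUBE3, did not pass the filter on low counts.

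TCN1, the cobalamin-binding protein haptocorrin, was at 1.44, 0.788, 0.862 and 0.977 CPM in wild type and 4.49, 5.15, 6.44 and 4.74 CPM in knockout, a log2 fold change of 2.34 ± 0.23. SLC1A3, a glutamate and aspartate transporter, was at 26.7, 34.7, 26.4 and 27.4 CPM in wild type and 62.1, 71.7, 74.2 and 71.0 CPM in knockout, a log2 fold change of 1.28 ± 0.11 (edgeR adjusted p = 0.000123). Both were higher in all 4 knockout libraries. NRP1, a co-receptor for semaphorins and VEGF, rose from 4.12 ± 0.331 to 10.0 ± 1.28 CPM, and SERPINB5 (maspin), an epithelial serpin, from 31.4 ± 2.54 to 69.5 ± 8.19 CPM. HACL1, a peroxisomal lyase of fatty acid alpha-oxidation, rose from 19.0 ± 0.846 to 41.3 ± 2.21 CPM. Also among the 15 largest increases were KLK7, LAMA3, TP53INP1 and CDKN1A, described with their groups, and on the log2 scale ABCA12, a lipid transporter of keratinocytes (1.51), CCDC68 (1.26), and H2BC5, a histone H2B gene (1.08). All 15 were called in every fit without 1 library and with the offset.

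**Figure D2:**
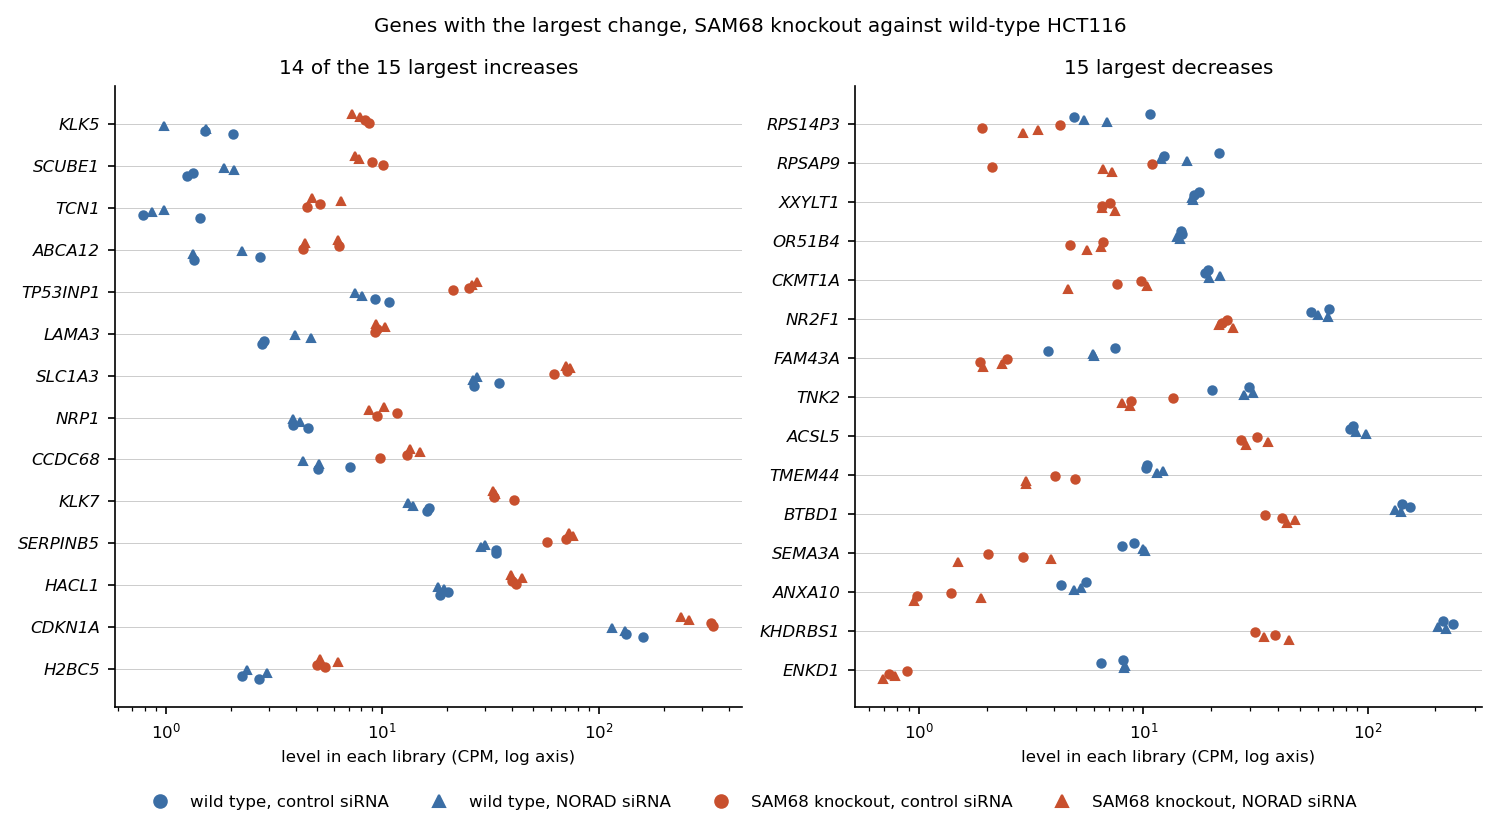
CPM (log axis) of 14 of the 15 largest increases and of the 15 largest decreases in each of the 8 libraries; blue is wild type, orange knockout, circles control siRNA and triangles NORAD siRNA. By the choice of these genes no orange point overlaps a blue one. For some genes, such as CDKN1A and SCUBE1, the libraries of the 2 siRNAs lie apart within a genotype.

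p53 is a transcription factor that arrests the cell cycle and promotes repair or death after DNA damage and other stress. Of 28 tested members of a list of 30 p53 target genes, 17 were called higher and none lower, where 8.26% of all tested genes were higher. The median log2 fold change was 0.416 against -0.00811 over all genes, and 27 of 28 were above 0. The genotypes did not overlap for 21 of the 28, against 19.1% of all genes. With the GC and length offset 24 were called higher and none lower, with a median of 0.49. With 1 library left out 10 to 18 were called higher, where 111 to 2356 of all genes were, and the median stayed between 0.388 and 0.431. The 10 were without wild-type NORAD siRNA replicate 2.

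CDKN1A, which encodes the CDK inhibitor p21 and arrests cells in G1, was at 160.5, 134, 132 and 116 CPM in wild type and 339, 329.9, 263 and 240.0 CPM in knockout. It lay above wild type in every knockout library, at 136 ± 18.6 against 293 ± 49.1 CPM (log2 fold change 1.10 ± 0.09, edgeR adjusted p = 6.16e-05). TP53INP1, a stress-induced regulator of p53 and autophagy, was at 10.7, 9.28, 8.07 and 7.51 CPM in wild type and 21.2, 25.1, 25.9 and 27.3 CPM in knockout. SESN1, an inhibitor of mTORC1 signalling, was at 10.9, 10.5, 12.7 and 12.7 CPM in wild type and 21.2, 21.8, 23.7 and 24.0 CPM in knockout. The genotypes overlapped for neither gene, and the log2 fold changes were 1.49 ± 0.13 (edgeR adjusted p = 0.000153) and 0.96 ± 0.08 (0.000153).

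Further members of this list, named after their values were seen, also rose. GDF15, a secreted stress cytokine, went from 82.9 to 164 CPM (0.99 ± 0.17), RRM2B, a subunit of the ribonucleotide reductase used for repair, from 63.6 to 122 CPM (0.94 ± 0.12), and the death receptor gene FAS from 11.9 to 22.9 CPM (0.94 ± 0.14). MDM2, the ubiquitin ligase that degrades p53, rose from 157 to 246 CPM (0.66 ± 0.13, edgeR adjusted p = 0.0141), and its log2 fold change was 0.44 with the offset. The other called members were TP53I3 (1.01), ZMAT3 (0.90), PLK2 (0.84), BTG2 (0.72), TIGAR (0.52), PPM1D (0.43), CYFIP2 (0.42), TRIAP1 (0.42), PLK3 (0.38) and TNFRSF10B (0.28). SESN2 was the 1 member below 0, at -0.22 ± 0.10 and not called.

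**Figure D3:**
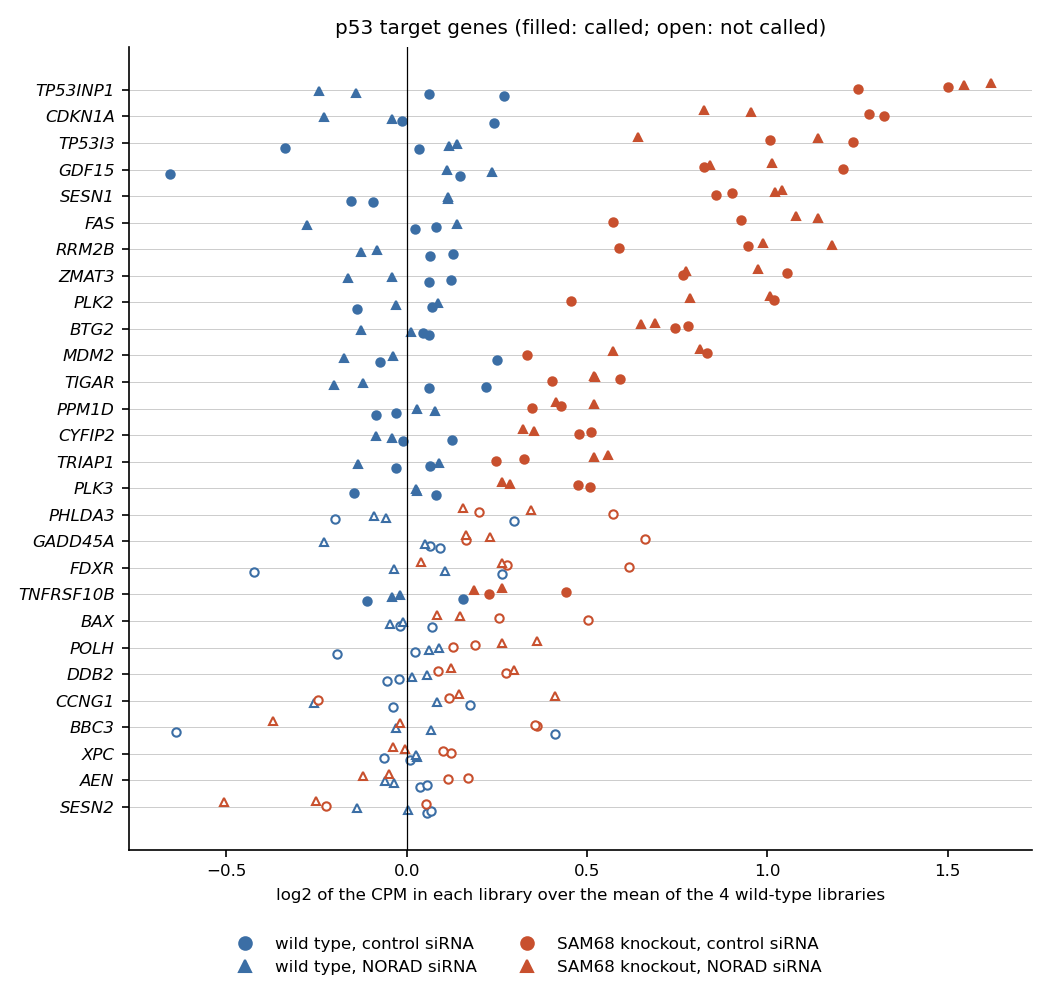
Log2 of the CPM in each of the 8 libraries over the mean of the 4 wild-type libraries, for the 28 tested p53 target genes; filled points mark called genes and open points genes not called. For most genes the knockout libraries lie to the right of all wild-type libraries, with TP53INP1 and CDKN1A farthest out and SESN2 below 0.

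The promoters of the listed genes were searched for a pair of p53 core half-sites with no gap between them. The motif was CATGNNNNNNCATG, where the 6 middle bases may be any. This motif is its own reverse complement, so both strands are covered. In RefSeq promoters of GRCh38.p14, each 250 bases before to 50 after a gene's start, it was found in 131 of 35116 (0.373%) and in 1 of the 38 promoters of 25 listed genes. That one belongs to TRIAP1, an inhibitor of apoptosis in mitochondria. The match begins at position 32 from the gene's start, so it lies in the transcribed part and not before the start. Whether p53 binds there was not tested. TRIAP1 rose from 53.9 ± 3.76 to 72.0 ± 7.44 CPM (edgeR adjusted p = 0.0207). The CDKN1A promoter, shown beside that of TRIAP1 as the list's member with the smallest p, holds no match in this window. Sites outside the window or with another core sequence were not searched. The counts therefore do not tell whether the listed genes have p53 sites. The match is in capitals, and both promoters are written 5′ to 3′ on the gene's strand. The positions are TRIAP1 at chr12:120446335-120446634 on the minus strand and CDKN1A at chr6:36678464-36678763 on the plus strand.
TRIAP1: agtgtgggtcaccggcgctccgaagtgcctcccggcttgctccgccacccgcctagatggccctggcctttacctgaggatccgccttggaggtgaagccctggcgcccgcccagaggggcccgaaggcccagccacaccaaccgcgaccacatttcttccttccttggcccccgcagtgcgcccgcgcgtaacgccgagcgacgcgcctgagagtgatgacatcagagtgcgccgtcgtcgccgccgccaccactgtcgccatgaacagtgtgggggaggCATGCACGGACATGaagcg
CDKN1A: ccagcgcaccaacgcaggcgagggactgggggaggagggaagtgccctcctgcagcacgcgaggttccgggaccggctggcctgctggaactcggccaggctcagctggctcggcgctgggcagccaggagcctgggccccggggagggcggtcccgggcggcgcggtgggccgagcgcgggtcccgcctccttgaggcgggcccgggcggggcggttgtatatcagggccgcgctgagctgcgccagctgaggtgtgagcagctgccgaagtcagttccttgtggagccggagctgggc

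Among the cyclins, CDKs and inhibitors of G1, 3 of 22 tested genes were higher and 2 lower (3 and none with the offset). Without any one of the 6 libraries that did not stand apart 1 or 2 were called higher and none lower, and without 1 of those that stood apart 4 were higher and 5 or 6 lower. CDKN1A is one of them, with RB1, the retinoblastoma protein that holds cells in G1, at 44.8 against 69.8 CPM (0.63 ± 0.13), and cyclin D1 (CCND1). E2F1 and E2F2, transcription factors for S phase genes, fell (-0.27 and -0.33), and were at -0.04 and -0.16 and not called with the offset. In the BCL2 family of apoptosis regulators 1 of 14 was higher, a share near that of all genes, and none lower (3 and none with the offset): the p53 target PMAIP1 (NOXA), from 49.6 to 75.8 CPM (0.60 ± 0.11). The family had 0 or 1 call without any one of the 6 libraries that did not stand apart.

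The kallikrein-related proteases form a cluster of genes and include KLK5 and KLK7, which together cleave the junctions between skin cells. Of 6 tested members 3 were higher and none lower (5 and none with the offset). KLK7 was at 16.2, 16.4, 13.9 and 13.1 CPM in wild type and 40.5, 32.9, 33.0 and 32.4 CPM in knockout, with no overlap and a log2 fold change of 1.22 ± 0.09 (edgeR adjusted p = 5.89e-05). KLK10 rose from 8.79 ± 0.698 to 14.1 ± 2.55 CPM (0.67 ± 0.10). KLK6 and KLK8 were at 0.32 ± 0.11 and 0.38 ± 0.12, with adjusted p values of 0.0709 and 0.0525 by edgeR.

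Laminins are the trimeric glue of basement membranes, and integrins the receptors that hold cells to them. In this list 9 of 19 tested genes were higher and 1 lower, with a median log2 fold change of 0.184, and 13 were higher and 1 lower with the offset. LAMA3, the alpha chain of laminin-332, was at 2.79, 2.85, 4.70 and 3.96 CPM in wild type and 9.29, 9.51, 10.3 and 9.41 CPM in knockout (1.44 ± 0.15, edgeR adjusted p = 0.000439). The beta chain LAMB3 of the same trimer also rose, from 59.1 ± 11.1 to 106 ± 41.1 CPM (0.81 ± 0.16), though the genotypes overlapped. So did the integrin chains ITGA2 (74.8 to 129.7 CPM, 0.80 ± 0.09), ITGB1 (533 to 794 CPM, 0.57 ± 0.08), ITGA6 (0.49) and ITGAV (0.37), and the laminin chains LAMB2 (0.47) and LAMA4 (1.10, at 3.31 CPM in knockout). LAMB1, a beta chain of other laminins, moved the other way, from 74.4 ± 3.21 to 33.5 ± 1.54 CPM (-1.15 ± 0.08, edgeR adjusted p = 3.70e-05). It was called in every alternative. With 1 library left out 5 to 9 genes of the list were higher, 5 without knockout NORAD siRNA replicate 1 or wild-type NORAD siRNA replicate 2.

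EGF-family ligands activate the receptors EGFR and ERBB2 to ERBB4 and drive ERK signalling. Of 11 tested ligands and receptors, 5 were higher and 1 lower. All 5 were ligands. Amphiregulin (AREG) was at 133 ± 8.44 against 227 ± 18.2 CPM (0.77 ± 0.08, edgeR adjusted p = 0.00069). Epiregulin (EREG) was at 693 ± 49.5 against 1092 ± 171 CPM (0.65 ± 0.10). TGFA was at 45.3 ± 12.7 against 70.6 ± 17.5 CPM (0.65 ± 0.09). For TGFA the genotypes overlapped over all 8 libraries, but not within either siRNA. HBEGF (0.43) and BTC (0.67, at 3.04 CPM in knockout) complete the 5. The receptor ERBB2 fell (-0.34 ± 0.08), and EGFR was at 0.04 ± 0.09 (edgeR adjusted p = 0.778). With the offset 4 were higher and none lower: BTC and ERBB2 were not called, and EREG was at 0.31. Without any one of 5 libraries (both knockout NORAD siRNA replicates, knockout control siRNA replicate 2, wild-type NORAD siRNA replicate 2 and wild-type control siRNA replicate 1) 3 ligands were called, and AREG kept its call in each of the 8 fits. Of the ERK feedback genes, 4 of 19 tested were higher and 1 lower (7 and 2 with the offset): the phosphatase DUSP4 (0.47 ± 0.09), PHLDA1 (0.38 ± 0.07), EPHA4 (0.69 ± 0.15) and CCND1 rose, and the ETS factor ETV4 fell (-0.42 ± 0.11). Of these calls 0 to 3 higher and none lower were left without any one of the 6 libraries that did not stand apart, with 0 without knockout control siRNA replicate 2.

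Target genes of YAP and TGF-beta, pathways that couple cell contact and matrix to transcription, were higher in 6 of 16 and lower in none (7 and none with the offset; median 0.206). THBS1 (thrombospondin 1) rose from 27.4 ± 2.59 to 48.9 ± 6.26 CPM (0.83 ± 0.11, edgeR adjusted p = 0.00203), CCN2 (CTGF) from 2.80 ± 0.371 to 4.89 ± 0.489 CPM (0.80 ± 0.16), and the TGF-beta inhibitor SMAD7 from 4.27 to 6.62 CPM (0.66 ± 0.15). ID2, SKIL and TAGLN were the other 3. Without any one of the 6 libraries that did not stand apart 1 or 2 were called higher. CCN2 lost its call without knockout control siRNA replicate 2 and without wild-type NORAD siRNA replicate 2, and THBS1 kept it in each of the 8 fits.

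**Figure D4:**
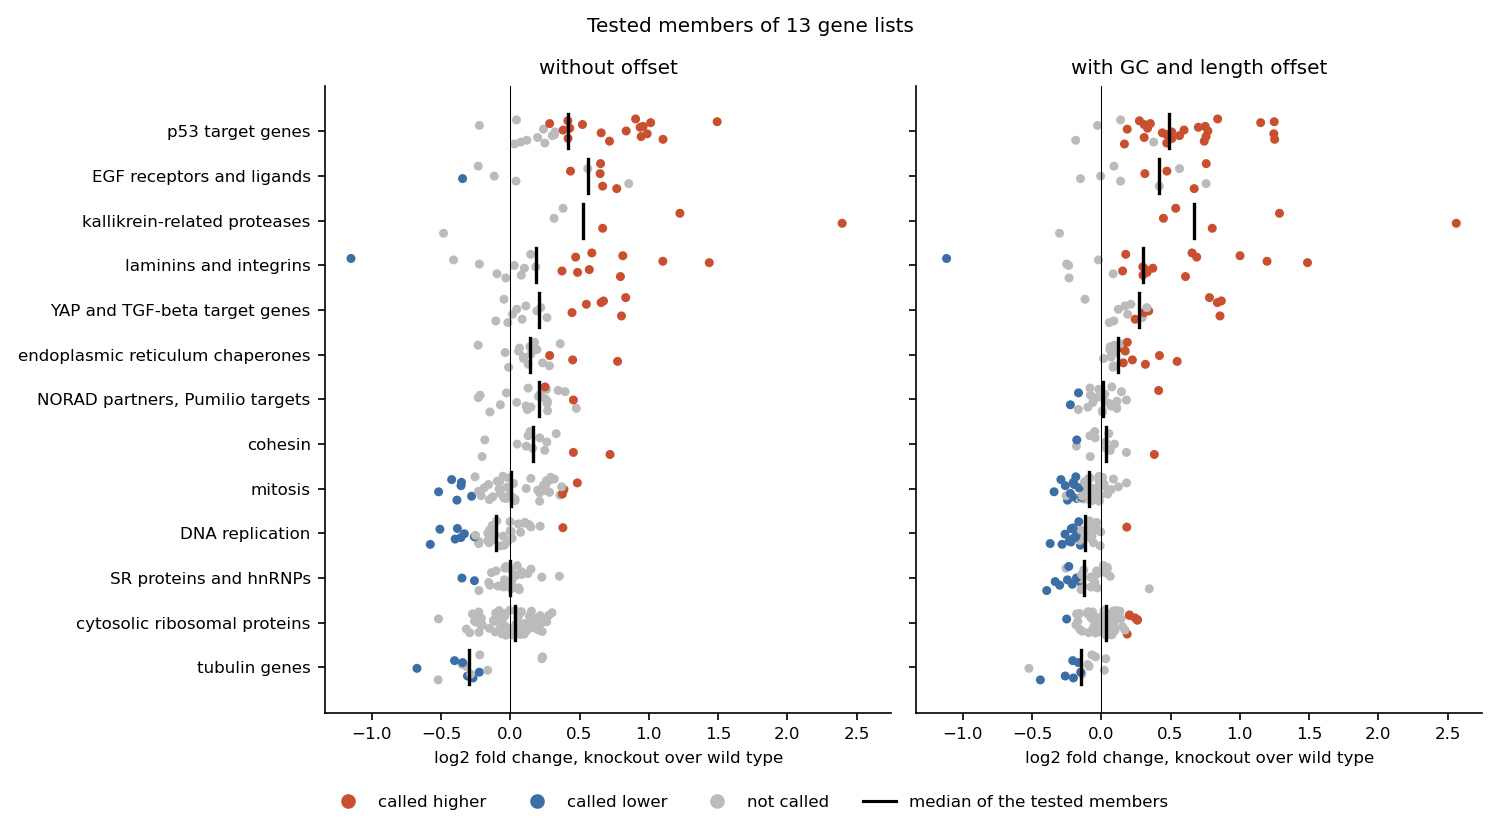
Log2 fold change of the tested members of 13 lists, without and with the GC and length offset; each point is a gene and the black bar the median of the list. The p53 target genes lie mostly above 0 in both panels (medians 0.416 and 0.49), and the tubulin genes mostly below (medians -0.298 and -0.144).

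The largest decrease among called genes that reached 5 CPM and did not overlap was in ENKD1, a protein of the centriole and cilium. It was at 8.15, 6.49, 8.30 and 8.23 CPM in wild type and 0.885, 0.735, 0.778 and 0.693 CPM in knockout, a log2 fold change of -3.34 ± 0.17 (edgeR adjusted p = 5.36e-06), larger in size than that of KHDRBS1. BTBD1, an adaptor for CUL3 ubiquitin ligases, was at 142, 154, 132 and 141 CPM in wild type and 35.0, 41.3, 47.4 and 43.6 CPM in knockout (-1.77 ± 0.10, edgeR adjusted p = 9.61e-06). Neither gene had a knockout library near the wild-type range. ACSL5, a fatty acyl-CoA ligase of mitochondria and gut epithelium, fell from 89.0 ± 6.34 to 31.0 ± 3.94 CPM (-1.52 ± 0.10), and the nuclear receptor NR2F1 (COUP-TF1) from 62.4 ± 5.58 to 23.2 ± 1.55 CPM (-1.43 ± 0.10).

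ANXA10, a calcium-binding annexin of the stomach, fell from 5.00 ± 0.539 to 1.30 ± 0.44 CPM (-1.98 ± 0.23), and SEMA3A, a guidance factor that binds NRP1, from 9.30 ± 0.947 to 2.57 ± 1.05 CPM (-1.87 ± 0.24). OR51B4, an olfactory receptor gene that HCT116 transcribes, was at 14.8, 14.9, 14.1 and 14.5 CPM in wild type and 6.63, 4.71, 6.50 and 5.58 CPM in knockout (-1.32 ± 0.12). TNK2, a non-receptor tyrosine kinase, was at 29.7, 20.1, 30.8 and 28.1 CPM in wild type and 13.6, 8.77, 8.05 and 8.68 CPM in knockout (-1.49 ± 0.18), with the knockout library that stood apart, control siRNA replicate 1, nearest to wild type. TMEM44 (-1.59), FAM43A (-1.45) and XXYLT1 (-1.29) complete the list with TNK2 as neighbours on chromosome 3, described with it. CKMT1A, mitochondrial creatine kinase, was at -1.32 ± 0.21, but shares reads with its near-identical copy CKMT1B. RPSAP9 (-1.20 ± 0.36) and RPS14P3 (-1.17 ± 0.28) are ribosomal pseudogenes whose reads cannot be told from those of the parent genes; they were called in 6 and 10 of 18 fits.

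Tubulins build microtubules. None of 14 tested genes was higher and 6 were lower (6 with the offset), with a median log2 fold change of -0.298, or -0.144 with the offset. TUBB6 fell from 131 ± 12.3 to 99.2 ± 4.58 CPM (-0.40 ± 0.09), TUBA1C from 978 ± 35.8 to 789 ± 29.2 CPM (-0.31 ± 0.07) and TUBA1B, the most abundant, from 2593 ± 76.6 to 2151 ± 78.9 CPM (-0.27 ± 0.06, edgeR adjusted p = 0.025). These genes are similar in sequence, so reads may be split unevenly between them. Without wild-type control siRNA replicate 2 or knockout control siRNA replicate 1, which stood apart, 11 of them were called lower. Without any one of the other 6 libraries 0 to 2 were. Over all genes, 1997 and 2096 were called lower without these 2 libraries in turn, and 101 to 148 without one of the other 6.

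Genes of DNA replication leaned lower: 7 of 34 were called lower and 1 higher, and 13 lower and 1 higher with the offset, with medians of -0.105 and -0.121. POLE, the catalytic subunit of the leading-strand polymerase, fell from 224 to 172 CPM (-0.38 ± 0.08), and the helicase subunits MCM2 (314 to 246 CPM, -0.36 ± 0.08) and MCM7 (703 to 558 CPM, -0.33 ± 0.07) with it. POLE2 was the 1 gene higher (0.38 ± 0.09). In mitosis genes 3 of 46 were higher, a share below that of all genes (8.26%), and 6 lower, against 5.19% of all genes; with the offset none was higher and 12 were lower. Separase (ESPL1) fell from 119 ± 6.63 to 83.4 ± 8.61 CPM (-0.52 ± 0.09), as did the condensin subunit NCAPD2 (-0.36 ± 0.07) and the kinetochore protein SPC24 (-0.42 ± 0.09). The kinetochore and spindle genes CENPE (0.38), NUF2 (0.48) and KIF18A (0.39) were called higher, but stood at 0.05, 0.18 and 0.07 and were not called with the offset. Without any one of the 6 libraries that did not stand apart, 0 or 1 replication genes and 0 to 2 mitosis genes were called lower.

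Within the STAR family, of which 4 of 5 members were tested, KHDRBS3, which encodes the SAM68-like protein SLM2, rose. It was at 8.85, 9.46, 10.3 and 10.2 CPM in wild type and 20.9, 15.6, 17.7 and 15.8 CPM in knockout, with no overlap, a mean of 9.70 ± 0.68 against 17.5 ± 2.45 CPM and a log2 fold change of 0.85 ± 0.12 (edgeR adjusted p = 0.00391). It was called in every alternative. QKI and SF1, other members, were at 0.24 ± 0.12 and -0.21 ± 0.09 and not called, and KHDRBS2 did not pass the filter. Of 8 tested genes reported as SAM68 targets, 3 were higher and none lower (4 and 1 with the offset, which added BCL2L1 higher and SGCE lower): ALDH1A3, a retinaldehyde dehydrogenase, at 469 ± 37.6 against 716 ± 48.0 CPM (0.61 ± 0.07, edgeR adjusted p = 0.00133), FAS, and CCND1 at 584 against 726 CPM (0.31 ± 0.08, 0.0297). CCND1 lost its call without any of 5 single libraries (knockout NORAD siRNA replicate 2, knockout control siRNA replicate 2, either wild-type NORAD siRNA replicate, or wild-type control siRNA replicate 1).

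NORAD was at 249, 232, 50.2 and 47.4 CPM in wild type and 225, 252, 77.4 and 54.7 CPM in knockout. It was low in the NORAD siRNA libraries of both genotypes, and its genotype effect was 0.20 ± 0.12 (edgeR adjusted p = 0.264), with 0.43 under NORAD siRNA and -0.01 under control siRNA. PUM2, a Pumilio protein, was at 0.22 ± 0.10 (adjusted p = 0.15), and at 0.03 with the offset. Of 22 NORAD partners and reported Pumilio targets 2 were higher, a share near that of all genes (8.26%), and none lower. The 2 were TOP1 (0.25) and ESCO2 (0.46), and neither was called with the offset. With it 1 other gene was higher and 2 lower, and the median of this list fell from 0.21 to 0.0122. Of 29 SR proteins and hnRNPs 2 were lower, PTBP1 (-0.35 ± 0.08) and HNRNPM (-0.26 ± 0.07), a share near that of all genes (5.19%). With the offset 8 were lower, against 5.82% of all genes. Of 13 cohesin genes 2 were higher and none lower (1 and 1 with the offset), the acetyltransferases ESCO1 (0.72) and ESCO2. In these 3 lists no call was left without any one of the 6 libraries that did not stand apart.

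Other lists moved in few members. Among Wnt targets and feedback genes 1 of 17 was higher and 2 lower (3 and 2 with the offset): the Wnt inhibitor DKK1 rose from 252 ± 8.69 to 354 ± 25.8 CPM (0.49 ± 0.07), while RNF43, which removes Wnt receptors, fell from 56.0 ± 4.10 to 30.6 ± 4.64 CPM (-0.88 ± 0.11, edgeR adjusted p = 0.00222) and AXIN2 from 19.0 ± 1.44 to 12.6 ± 0.2 CPM (-0.59 ± 0.09). Of 27 epithelial genes 3 were higher and 2 lower, shares not far from those of all genes (8 and 3 of 26 with the offset): the keratin KRT80 (0.62 ± 0.11), desmocollin DSC2 (0.57 ± 0.10) and EPCAM (0.32 ± 0.08) rose, and the keratin KRT23 (-1.08 ± 0.14) and plakophilin PKP3 (-0.76 ± 0.12) fell. Of 12 mesenchymal and matrix genes 2 were lower, vimentin (VIM, 3.56 to 1.61 CPM) and fibronectin (FN1, 17.7 to 13.2 CPM), and none higher. With the offset 2 of 11 were higher and 2 lower. Of 12 iron genes 3 were higher and none lower (4 and none with the offset), the ferritin heavy chain FTH1 (0.35 ± 0.07), NCOA4, which delivers ferritin for breakdown (0.38 ± 0.08), and the iron importer SLC11A2 (0.34 ± 0.09). The 3 Wnt calls were kept in each of the 8 fits without 1 library. Without any one of the 6 libraries that did not stand apart 0 or 1 iron gene was called higher, 0 or 1 mesenchymal gene lower, and 1 or 2 epithelial genes higher and 2 lower. Without 1 of those that stood apart the epithelial genes had 5 higher and 5 or 6 lower, and the mesenchymal genes 4 lower.

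Of 25 cholesterol synthesis genes 3 were higher, led by MSMO1 (0.60 ± 0.13), and 4 lower, among them lanosterol synthase LSS (-0.56 ± 0.11). The counts were the same with the offset, but the members were not: the higher genes CYP51A1 and SC5D lost their calls and others gained one. Endoplasmic reticulum chaperones were higher in 3 of 18 (DNAJB9, DNAJC3 and HSP90B1, each with overlapping genotypes) and in 8 with the offset, and lower in none. The integrated stress response had 4 of 25 lower, among them ATF5 (-0.47) and SHMT2 (-0.27), but 1 with the offset. Immediate early factors had 2 of 22 lower, EGR1 (-0.50 ± 0.10) and NR4A1 (-0.41 ± 0.10), but 1 with the offset, and of 31 hypoxia and glycolysis genes the glucose transporter SLC2A1 (0.38 ± 0.09) alone was called (2 higher with the offset). Interferon-stimulated genes had 6 of 30 higher and 1 lower (4 and none with the offset), among them HERC5 (0.41), TAP1 (0.33) and, with the smallest p, IFIT2 (1.04, from 1.52 to 3.09 CPM). TAP1 was also the 1 called gene of 17 in antigen presentation (2 of 14 with the offset). NF-kB and inflammatory genes had 2 of 15 higher and 1 lower (2 and none with the offset), with the chemokine CXCL8 at 1.80 but overlapping genotypes. None of 70 cytosolic ribosomal protein genes was called by edgeR (6 higher and 1 lower with the offset; the smallest p was that of RPS3A, called by DESeq2), nor any of the 3 tested markers of blood and neural cells. Without any one of the 6 libraries that did not stand apart the chaperones had no calls, the stress response none, antigen presentation none, the interferon-stimulated and NF-kB genes at most 1 higher, the cholesterol genes none higher and at most 1 lower, and the immediate early and hypoxia genes at most 2.

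Because SAM68 acts on splicing and polyadenylation, the mean transcript length of each gene, weighted by the estimated abundance of its isoforms, was tested with limma. Of 6252 genes 9 were called (0.144%), 3 longer and 6 shorter in knockout, with 642 at an unadjusted p below 0.05. The joined row of ANKHD1, a scaffold protein with ankyrin repeats, and its neighbour EIF4EBP3 had lengths of 6392, 6889, 6566 and 6484 bases in wild type and 4556, 4823, 4443 and 4476 bases in knockout, a log2 change of -0.53 ± 0.03 (limma adjusted p = 0.00712). All 4 knockout libraries were shorter, but the row holds transcripts of 2 genes, so a change of isoform and of the share of each gene cannot be told apart. LRR1, a substrate receptor of ubiquitin ligases, went from 1315 to 1473 bases (0.16 ± 0.01), the centriole protein SCLT1 from 2719 to 2514 (-0.11 ± 0.01) and the nucleolar protein NOL7 from 972 to 1039 (0.10 ± 0.01). The actin-binding protein PALLD went from 4745 to 4571 bases, PREPL from 6190 to 6358, the noncoding OTUD6B-AS1 from 2301 to 2200, ZBTB20 from 26926 to 26484 and CLDND1 from 2206 to 2197, all small relative to the gene. PALLD and OTUD6B-AS1 were also called in counts. Among 6 reported SAM68 targets with a testable length (ALDH1A3, FAS, BCL2L1, SRSF1, SGCE and CD44) none was called; CD44, whose variable exons SAM68 is known to affect, was nearest, with a limma adjusted p of 0.426. With 1 library left out 0 to 8 lengths were called, with 0 without knockout NORAD siRNA replicate 2 or wild-type control siRNA replicate 2, 1 without knockout NORAD siRNA replicate 1, and 2 without wild-type control siRNA replicate 1 or wild-type NORAD siRNA replicate 2.

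Called genes also lay next to each other. Runs of at least 4 neighbouring tested genes, all called in 1 direction, held 59 genes in 13 runs, and 34 genes in 7 runs with the offset. Neighbours were taken from the gene order of the RefSeq table of GRCh38.p14, another build than that of the files. The longest run was of 7 genes on chromosome 3, all lower: TMEM44, the ribosome biogenesis GTPase LSG1, FAM43A, the xylosyltransferase XXYLT1, ACAP2, the phosphatase inhibitor PPP1R2 and the mucin MUC20, with a median log2 fold change of -1.29. LSG1, an even case, was at 128 ± 4.61 CPM in wild type and 70.3 ± 2.90 CPM in knockout (-0.86 ± 0.07, edgeR adjusted p = 0.000113), and MUC20 at 1.99 against 0.335 CPM.

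The wider stretch from CCDC50 to SDHAP1, whose ends were set after the values were seen, held 16 tested genes. All 16 were below 0, 12 were called lower and none higher, where 5.19% of all genes were called lower, and 13 did not overlap between genotypes, against 19.1% of all genes. Their median log2 fold change was -0.909 (-0.949 with the offset), and the median gene stood at 53.3% of its wild-type level. The stretch includes TNK2, OPA1, a GTPase of mitochondrial fusion (-0.77 ± 0.11), and ATP13A3, a polyamine transporter (-0.53 ± 0.13). On the side of DGKG, 14 genes had a median of -0.214 with 2 called lower, and on the side of TFRC 27 genes had a median of 0.0182 with 1 called in each direction. In U2OS cells treated with siRNAs against SAM68, 10 of the 16 were below 0, with a median of -0.0562. With 1 library left out 10 to 13 of the 16 were called lower and none higher.

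**Figure D5:**
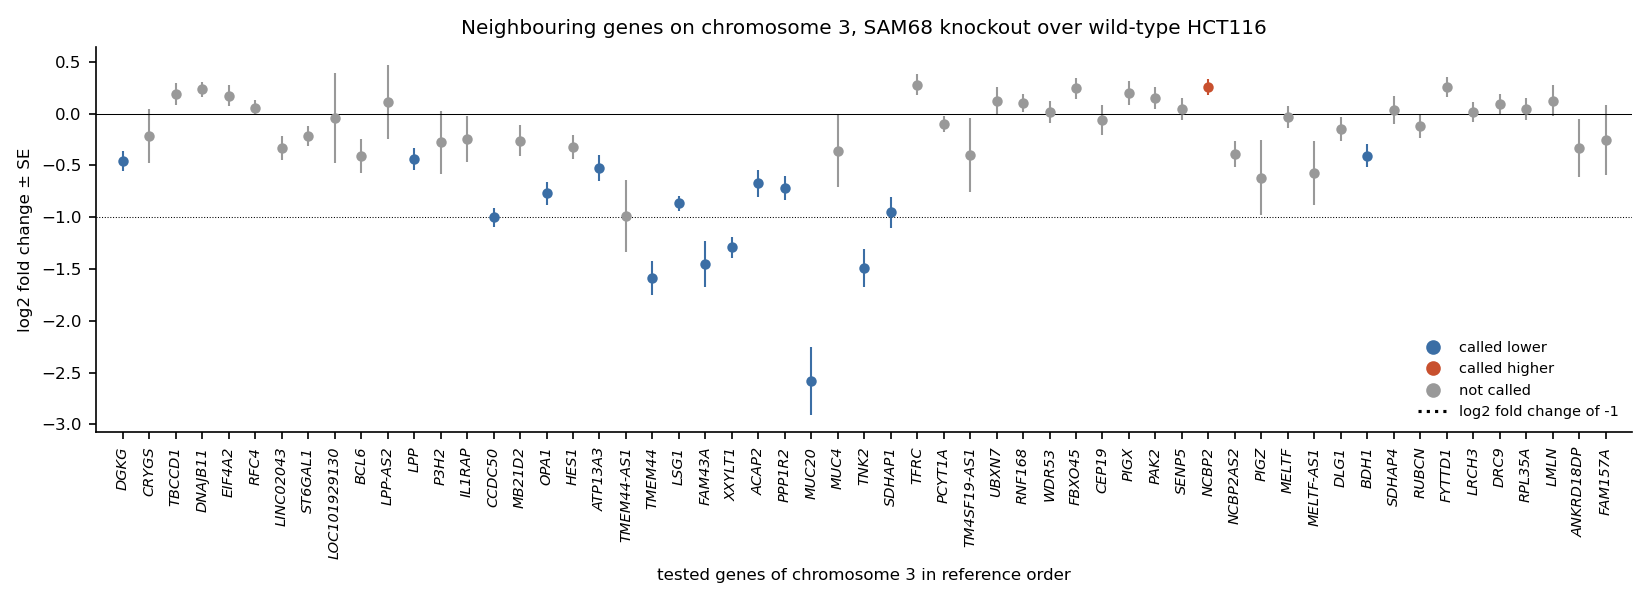
Log2 fold change of knockout over wild type with its standard error for 57 tested genes of chromosome 3 in reference order, from DGKG to FAM157A; the dotted line marks -1. The genes from CCDC50 to SDHAP1 lie below 0, many near -1, and genes after SDHAP1 scatter around 0.

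A second run held 4 lower genes on chromosome 11, the hemoglobin genes HBG2 and HBE1 and the olfactory receptors OR51B4 and OR51B2. HBG2 went from 1.97 to 1.05 CPM (-0.92 ± 0.26, edgeR adjusted p = 0.042), with overlapping genotypes. HBE1 went from 64.5 to 39.8 CPM (-0.70 ± 0.15) and OR51B2 from 4.39 to 0.697 CPM (-2.62 ± 0.20). All 4 were also called with the offset, which added OR51B5. The remaining run of lower genes was on chromosome 19, with DCAF15, RFX1, IL27RA and PALM3. Its median GC content was 62.1%, and 3 of its 4 genes were called with the offset. Without the offset 10 further runs were of genes called higher, with median GC contents of 38.0% to 42.2%, and of their 44 genes 18 were called with it.

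U2OS osteosarcoma cells gave independent libraries for the same protein. KHDRBS1 was at -1.94 on the log2 scale under siRNAs against SAM68, as a value from the edgeR fit to the 8 U2OS libraries. Of 1771 genes called in HCT116 and tested in both lines, 33.2% had the same direction under SAM68 siRNA in U2OS, against 37.9% of all 13004. Over all genes too, the direction in U2OS was thus more often opposite than the same. Under a SAM68 plasmid in U2OS, 61.9% of the called genes had the opposite direction to that in HCT116, against 58.8% of all. For SAM68 siRNA, further shares with the same direction follow. The share was 56.1% for the 114 with an absolute log2 fold change of at least 1, and 47.5% of 1963 genes called with the offset. For the p53 target genes it was 42.9% of 28, and CDKN1A was at 0.03. BTBD1 was at -0.92 and OR51B4 at -1.04 in U2OS, below 0 in both cell lines, while SLC1A3 (-0.12), NRP1 (-0.25), ACSL5 (-0.10), ENKD1 (-0.23) and NR2F1 (-0.25) were within 0.3 of 0. Others of the largest changes lay farther out: TCN1 (0.73), HACL1 (0.39) and LAMA3 (0.34) in the same direction as in HCT116, and FAM43A (0.61) in the opposite one. Differences between the cell lines were not tested.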

How the data were processed

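Poly(A) RNA of 8 HCT116 libraries was analysed (4 groups of 2), with 8 U2OS libraries as a further cell line. Per the labels' protocols, TRI reagent served for the RNA and a stranded mRNA kit for the libraries. Per the file headers, the authors deposited RSEM estimates per gene over RefSeq transcripts, 1 file per library, not pooled. Expected counts were used as deposited by the authors, with no normalization, and rounded to whole numbers. The length and effective length columns, in bases, are another quantity deposited by the authors. The submitters' processing notes name STAR, RSEM and hg19; the sources used here give neither versions nor the strand setting, so antisense, overlapping and near-identical genes are uncertain. Of 27434 rows, those with no symbol held 0.0311% of the counts. GC content came from GENCODE transcripts and gene order from the RefSeq table of GRCh38.p14, another build than the files; a GC value was found for 96.8% of tested genes.

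Depth was 15808640 to 27387412 expected counts per library. Replicates of a group differed by more than sampling noise (chi-square per gene 7.83 to 20.5, over genes with 20 or more counts in the pair; log CPM correlation across genes 0.985 to 0.991), so all 8 were kept as samples. Genes were filtered with filterByExpr, scaled by TMM and put through the quasi-likelihood test of edgeR (edgeR 4.0.16, limma 3.58.1, R 4.3.3) with siRNA and genotype as additive terms, 5 residual degrees of freedom and a threshold of 0.05 on the Benjamini-Hochberg adjusted p over all 13764 genes. The biological coefficient of variation was 11.8%. Transcript length was tested with limma (trend, robust) over genes with a mean of at least 100 counts and a length that varied by at least 1 base. The offset was a smooth curve per library in GC content and length. Both tests were also run on simulated data, which held no dependence on GC content, so that check does not cover it. Alternatives were DESeq2 1.42.0, its size factors, no filter, a replicate block, and a 4-group model with its contrasts within each siRNA. Further ones were voom with duplicateCorrelation, effective length and GC offsets, and each library left out. The GC offset with a library left out or with the block, and the fit without both libraries that stood apart, were added after seeing the data.

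The members and the 31 gene lists (743 entries, 603 different genes tested) were chosen with earlier results of these data known. Named were KHDRBS1, CDKN1A, SCUBE1, NORAD and PUM2; the 15 largest increases and decreases among called genes with at least 5 CPM in the higher genotype and no overlap; up to 3 called list members per direction with the smallest p, or the smallest p where none was called; up to 10 called lengths; and genes in runs of neighbours. Other names were chosen after their values were seen. Some genes are not reported here.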

Additional observations from a re-analysis of the deposited data

Results flagged for a closer look

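Among the genes given or with the largest changes, 62 sets of 4 libraries of 1 genotype were examined, and in 4 of them 1 library lay far from the other 3 by Dixon's test, which chance does in about 1 in 20 groups. SLC1A3 was at 34.7 CPM in wild-type control siRNA replicate 2 and at 26.4 to 27.4 CPM in the other wild-type libraries. ENKD1 was at 6.49 CPM in the same library and at 8.15 to 8.30 CPM in the others. KLK7 was at 40.5 CPM in knockout control siRNA replicate 1, against 32.4 to 33.0 CPM in the other knockout libraries, and TNK2 at 13.6 CPM there against 8.05 to 8.77 CPM. These 2 libraries are the ones whose dependence on GC content stood apart from the rest of their genotype. SLC1A3, ENKD1 and KLK7 were called in each fit with 1 library left out, and so was TNK2.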

How the results depend on the processing

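The labels do not say whether the libraries of a genotype are separate cultures or 1 clone, and the number of calls depended on the fit. Contrasts of the 4-group model called 43 genes under control siRNA and 2495 under NORAD siRNA. Against 1851 genes called, 3227 were called with no filter, 1010 by voom with duplicateCorrelation, and 5916 without both libraries that stood apart. With 1 library left out it was 212 to 4452, and with the GC offset 1044 to 2204 (1044 without wild-type NORAD siRNA replicate 1, 1131 without its replicate 2 and 1217 without knockout control siRNA replicate 2). DESeq2 called 2681, its size factors 1757 and the 4-group model 2424.

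Replicate numbers are shared between groups, but only 2 numbers exist and deviations of same-numbered libraries correlated at 0.0795 to 0.317, so a pairing was not established. A replicate block gave 3646 calls (3113 with the GC offset), 2 for the difference between siRNAs, 5 changed lengths and 206 called list members.

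The difference between the siRNAs was called for 0 genes by edgeR (1048 at an unadjusted p below 0.05; 0 with the GC offset, with 339), 2 by DESeq2, 30 with no filter, and 0 to 1 with 1 library left out (1 without either NORAD siRNA replicate 1, or either knockout control siRNA replicate). Changed lengths were 9, and 0 to 8 with 1 library left out. Genes in runs were 59, and 143 in runs of at least 3, 2743 in runs of at least 10 with the same direction, 128 by DESeq2 and 34 with the offset. The share with the same direction in U2OS was 33.2%, 56.1% at an absolute log2 fold change of at least 1 and 29.6% at 5 CPM or more in both lines. Of the listed genes 123 were called, 36 to 217 with 1 library left out (212 without wild-type control siRNA replicate 2, 217 without knockout control siRNA replicate 1 and 36 to 54 without another) and 270 without both that stood apart. Over the named genes 2462 alternatives kept direction and call, 861 kept the direction and lost the call, and 7 gained it. NORAD alone turned, to -0.01443 under control siRNA, where it was not called either way.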
